A study of Mus musculus with 12 samples.

Results

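Wild type MEC 3D cultures were compared between Day 4 (D4) and Day 3 (D3), to describe how the transcripts of normal mammary acini changed over this day in culture. The comparison took 6 of the 12 Illumina arrays of the study, 3 of D4 and 3 of D3. It covered the 18613 of 45281 probes that had a detection p below 0.05 on at least 3 of these 6 arrays, and these represented 10100 genes. The rule used no measured difference between the days, but a probe could pass it through the arrays of a single day. The primary mammary epithelial cells came from young adult C57BL/6 females in the third week of pregnancy and are labelled wild type, with no Cre described. Cultures of D4 and of D3 alike had been given 4-hydroxytamoxifen on day 0, as the Blimp-1 cKO cultures (Prdm1 BEH/CA;ROSA26:CreERT2) also had. The cKO cultures, 3 arrays at D4 and 3 at D3, entered the same normalization and the estimate of the spread, and were also used to show where the change differed between genotypes. The arrays carried triplicate samples, and separate animals are not stated for them, so the p-values reflect only the spread between samples of a day.

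In Matrigel, isolated mammary epithelial cells adhere to each other, proliferate and organise into acini, hollow balls of polarised luminal cells that resemble the alveoli of the gland. Myoepithelial cells, which contract to eject milk, lie outside the luminal layer in the gland. As acini mature, proliferation slows, the centre clears by cell death and, with lactogenic hormones, secretory cells switch on the genes of milk. The transcription factors STAT5A and ELF5 drive that secretory programme in the gland of pregnancy.

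The number of probes detected ranged from 18087 to 18905 on D4 arrays and from 18094 to 18780 on D3 arrays, and the median raw signal from 194 to 219 at D4 and from 207 to 230 at D3. The first principal component of the tested probes held 59.8% of the variance and separated the days, with scores of 39.4, 22.6 and 30.8 for the D4 arrays and of -30.4, -30.0 and -32.4 for the D3 arrays. The epithelial markers Krt8, Krt18, Krt19, Epcam and Cdh1 were detected on all 6 arrays, and none of 11 lymphocyte markers was detected on any. Markers of other cell types were present too. Detection on all 6 arrays was met by 11 of 17 myeloid, 10 of 16 fibroblast and 8 of 14 endothelial markers with a probe. D4 replicate 1 stood apart in stromal genes. The median fibroblast marker lay above its D3 mean by 0.81 on the log2 scale on that array, against 0.16 and -0.02 on the other D4 arrays. Results on stromal, matrix and basal genes are therefore also given without it. Which BeadChip held each D3 array is unknown from the sources used here, so differences between days and between BeadChips cannot be told apart. In RNA of whole cultures, fewer cells of a type and less RNA per cell cannot be told apart either.

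Of the 10100 genes, 755 were higher (7.48%) and 524 lower (5.19%) at D4 in wild type cultures, by limma's moderated test, with a Benjamini-Hochberg adjusted p up to 0.05 and a difference of 1.5-fold or more. These genes are termed called below, and their shares over all genes are the background for every list. Changes of at least 2-fold numbered 297 upward and 103 downward, and changes of at least 4-fold 48 upward and 4 downward. The median gene differed by -0.02 on the log2 scale, and 90% of genes lay between -0.63 (the 5th percentile) and 0.80 (the 95th). All D4 arrays lay above all D3 arrays for 747 of the 755 genes called higher, and below them for 518 of the 524 called lower. That separation alone was met by 20.9% of all genes upward and by 22.3% downward. Without D4 replicate 1, 627 genes were higher and 428 lower. When signals were scaled to equal medians in place of quantile normalization, 913 were higher and 393 lower, so that 69.9% of calls were upward, against 59.0% in the reported fit.

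**Figure D1:**
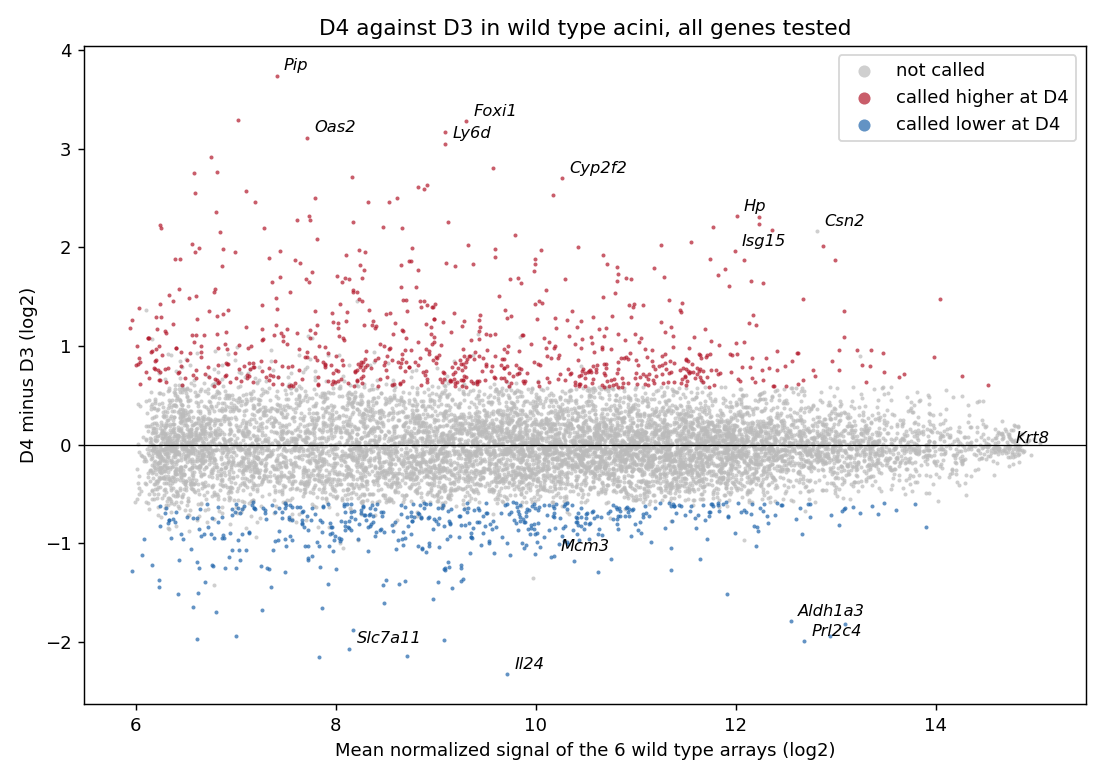
Difference between days (D4 minus D3, log2, vertical) against the mean normalized signal of the 6 wild type arrays (log2, horizontal) for 10100 genes, 1 point each, with fitted values also for genes not detected on one of the days. The 755 genes called higher (red) reach Pip at 3.74, the 524 called lower (blue) reach Il24 at -2.33, and the luminal keratin Krt8, among the brightest genes, lies near 0.

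Pip, which encodes a secreted glycoprotein of milk and other exocrine fluids, was among the largest increases. Its normalized log2 signals were 9.56, 8.78 and 9.49 at D4, against 5.20, 6.07 and 5.35 at D3. Its probe was detected on every D4 array and on no D3 array, so the increase is given as at least 8.21-fold. It thus passed the detection filter through the D4 arrays alone. Foxi1, the transcription factor of proton-secreting epithelial cells, had signals of 11.54, 10.60 and 10.69 at D4 and of 7.38, 8.28 and 7.35 at D3, and rose by 3.28 on the log2 scale (standard error 0.40, adjusted p = 0.000612). Another probe of Foxi1 gave 3.41, and the last, detected on no D3 array, was at least 5.57-fold higher. Masp1, a serine protease of the lectin pathway of complement, had 11.19, 10.12 and 10.73 at D4, against 7.61, 7.45 and 7.48 at D3 (log2 fold change 3.17, standard error 0.33, adjusted p = 0.000316). Arrays that are separate between the days were a condition for naming these genes among the largest increases.

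Oas2, an antiviral oligoadenylate synthetase, had 9.47, 9.25 and 9.08 at D4 against 6.02, 6.37 and 6.07 at D3, a rise by 3.11 on the log2 scale (standard error 0.35). Its probe was detected on only 1 D3 array, so the size is a fitted value, which other settings placed between 1.68 and 3.35. Ly6d, a GPI-anchored surface protein listed among the luminal markers, had 11.43, 10.23 and 10.20 at D4 and 7.40, 7.43 and 7.88 at D3. Its probes rose by 3.05 and 3.11. Cyp2f2, a cytochrome P450 best known from lung, stood at 11.49, 11.53 and 11.83 at D4, against 8.15, 9.22 and 9.36 at D3. Muc15, a membrane mucin found on milk fat globules, stood at 10.46, 10.13 and 10.08 at D4, against 6.06, 8.43 and 8.28 at D3, where replicate 1 lay well below the other D3 arrays. Pgf (placental growth factor, 2.60), Arhgef6 (a Rac and Cdc42 exchange factor, 2.81) and Snorc (2.57) also rose, as log2 fold changes. Snorc too was detected on only 1 D3 array, and other settings placed its rise between 1.18 and 3.20. Cd200, an immunoregulatory surface glycoprotein, rose by 2.71, but its D4 signals of 11.24, 8.51 and 8.82 spread widely and replicate 1 was the highest. Clec2e, a lectin-like gene, rose by 2.62 on the probe used, while its other probe did not pass (-0.02).

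**Figure D2:**
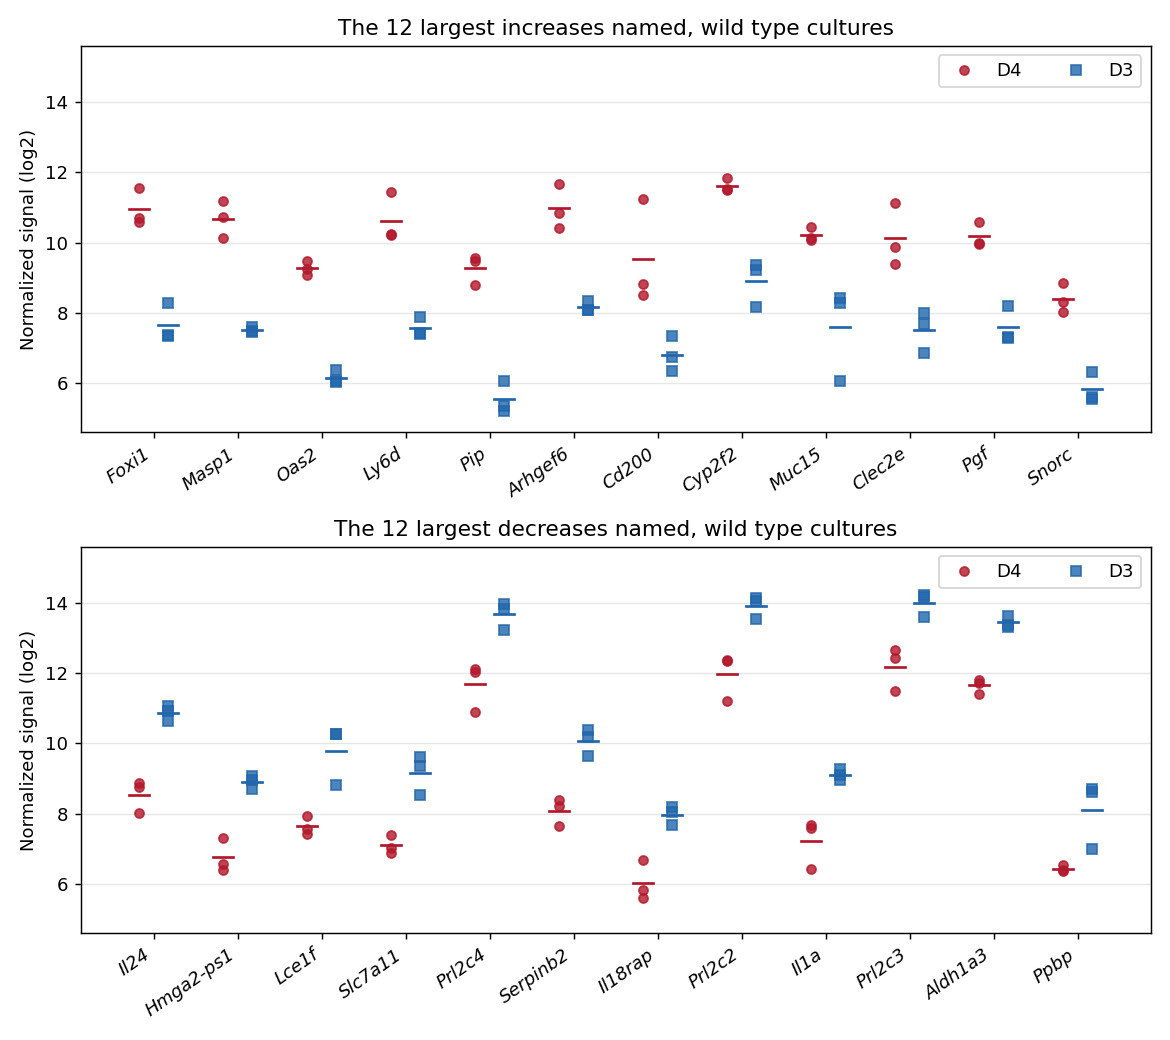
Normalized log2 signal (vertical) of the 12 largest increases (upper panel) and 12 largest decreases (lower panel) named, with D4 arrays (red circles) left of D3 arrays (blue squares), 3 arrays each, and bars at the mean. Genes were chosen among called genes whose D4 arrays do not overlap the D3 arrays. Masp1, for example, has 11.19, 10.12 and 10.73 at D4 and 7.61, 7.45 and 7.48 at D3.

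The largest decrease was in Il24, a cytokine of the IL-10 family. Its log2 signals were 8.02, 8.87 and 8.75 at D4, against 10.63, 11.07 and 10.93 at D3 (log2 fold change -2.33, standard error 0.21, adjusted p = 0.000177). Il1a, which encodes interleukin-1 alpha, fell by 1.88, with 6.43, 7.58 and 7.68 at D4 and 9.27, 9.10 and 8.96 at D3. Il18rap, a chain of the interleukin-18 receptor, fell by 1.94 on the probe used, while its other probe did not pass (-0.48). Il18r1, the other chain of that receptor, fell by 1.01. The platelet chemokine gene Ppbp fell by 1.67. On the probes used, these cytokine and receptor genes were lower on all D4 arrays than on any D3 array, which was required of the largest changes named.

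Serpinb2, an inhibitor of urokinase, had 7.64, 8.40 and 8.22 at D4 and 9.65, 10.38 and 10.18 at D3, a fall by 1.98. Aldh1a3, a retinaldehyde dehydrogenase of luminal progenitors, had 11.41, 11.74 and 11.82 at D4 and 13.64, 13.32 and 13.38 at D3, a fall by 1.79 (standard error 0.18, adjusted p = 0.000299). Slc7a11, the cystine transporter subunit that supplies glutathione synthesis, fell by 2.07. Lce1f, a late cornified envelope gene, had 7.57, 7.41 and 7.95 at D4 and 8.82, 10.26 and 10.28 at D3. The proliferin genes Prl2c4, Prl2c2 and Prl2c3, of the prolactin family, were bright at both days and fell by 1.99, 1.94 and 1.81. Their sequences are nearly identical, so the probes may not tell them apart and they count as uncertain single genes. The pseudogene Hmga2-ps1 fell by 2.15, and its probe may also read RNA of its parent gene.

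Milk genes rose in part. Of 28 listed milk protein and milk fat globule genes, 19 were tested, 8 rose (42.1%), 1 fell and 10 did not pass, and the median log2 difference was 0.57 (0.55 with genes below background at D3 at their bound), against -0.02 over all genes. Pip and Muc15 led them, followed by Cel, the bile salt-stimulated lipase of milk, which rose at least 3.34-fold with its probe detected on no D3 array. The iron carrier gene Trf rose by 1.48, with 15.00, 14.63 and 14.71 at D4, against 13.34, 13.45 and 13.12 at D3. Xdh and Btn1a1, which organise the milk fat globule membrane, rose by 0.72 and 0.67. Without D4 replicate 1, 7 of the 19 rose and none fell.

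The caseins did not move as a block. Csn1s1 (alpha-s1-casein) had 13.46, 13.19 and 13.58 at D4 against 10.94, 12.67 and 12.19 at D3, a rise by 1.48 (standard error 0.48, adjusted p = 0.0485) that was lost under 12 of the other settings tried. Csn2 (beta-casein) had 13.85, 13.88 and 13.95 at D4, against 9.93, 13.11 and 12.14 at D3. Its D4 arrays lay above all D3 arrays, yet with so wide a spread at D3 the log2 difference of 2.17 did not pass (standard error 0.94, adjusted p = 0.128). D3 replicate 1 was the lowest array for Csn1s1, Csn2 and Muc15. Csn3 (kappa-casein) was near the top of the signal range at both days and differed by -0.31 (adjusted p = 0.052). Csn1s2b was detected at D4 only and rose at least 1.47-fold. The antibacterial milk proteins Lcn2 and Ltf were also among the brightest genes and differed by 0.00 and -0.06. Mfge8, which tags dying cells and fat globules, differed by -0.21 on its brightest probe and by 0.40 on its other one, both near the top of the signal range, and the days were separate on each, in opposite directions. Neither was called. Wap, the whey acidic protein gene of late pregnancy, overlapped between the days (0.35, adjusted p = 0.743).

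Among 15 tested genes of the prolactin receptor and STAT5 pathway, 3 rose and none fell (median 0.19). Elf5 rose by 0.80, with 12.75, 12.66 and 13.26 at D4 and 12.07, 12.15 and 12.06 at D3 (adjusted p = 0.00412). Stat5a rose by 0.82 on its brightest probe, highest on D4 replicate 1 (10.60, 9.67 and 9.48 at D4, against 9.12, 9.05 and 9.12 at D3), and was lost under 8 settings. Id2, an inhibitor of bHLH factors needed for alveolar development in the mouse, rose by 0.87. Cebpb, Nfib and Ccnd1, the brightest members, differed by 0.24, 0.27 and -0.30 and did not pass, although another probe of Ccnd1 was called lower (-0.60).

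The promoters of the milk genes were searched on both strands for the letters TTCNNNGAA, the palindrome that STAT factors bind. Sequences of 250 bases before and 50 after the start site came from RefSeq (GRCm38.p6), and 8186 of the tested genes had one. The letters stood in 2 of the 3 milk genes called higher that had a promoter sequence, in 1 of 8 not called higher and in 6.73% of all 8186 promoters. Both promoters with the letters are shown, Pip as the gene with the largest bound among the milk genes below background at D3 and Csn1s1 as a casein that was called, with the matches in capitals, 5′ to 3′ on the strand of the gene. A match is a description of these letters only.
Pip, chr6:41847299-41847598 (plus strand): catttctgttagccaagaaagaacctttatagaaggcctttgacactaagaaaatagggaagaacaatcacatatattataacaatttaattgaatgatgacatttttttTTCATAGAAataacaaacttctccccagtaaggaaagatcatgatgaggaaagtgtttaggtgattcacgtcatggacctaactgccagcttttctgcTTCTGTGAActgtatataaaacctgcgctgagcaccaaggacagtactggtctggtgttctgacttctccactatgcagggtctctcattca
Csn1s1, chr5:87665958-87666257 (plus strand): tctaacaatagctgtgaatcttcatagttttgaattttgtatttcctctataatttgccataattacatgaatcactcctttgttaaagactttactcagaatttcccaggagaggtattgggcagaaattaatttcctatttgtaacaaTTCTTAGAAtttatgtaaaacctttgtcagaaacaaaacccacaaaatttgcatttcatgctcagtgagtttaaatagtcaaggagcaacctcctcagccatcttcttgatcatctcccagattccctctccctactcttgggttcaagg

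Beside Foxi1, a few listed genes of ionocytes rose. Ionocytes are rare proton-secreting cells of kidney, inner ear and airway, in which FOXI1 activates subunits of the vacuolar proton pump. Of 12 tested genes of this list, 4 rose and none fell (median 0.40, which settings other than the reported one placed between 0.02 and 0.48). Atp6v1b1, the pump subunit typical of ionocytes, had 9.41, 8.26 and 8.32 at D4, against 5.39, 5.41 and 5.32 at D3, and rose at least 5.36-fold, being detected on no D3 array. Its other probe did not pass (0.37). The widely used subunit Atp6v1a rose by 0.81, while Atp6v1b2, Atp6v1c1 and the anion exchanger Slc26a4 differed by 0.25, 0.01 and -0.16 and did not pass. Kit, a receptor tyrosine kinase of luminal progenitors, rose by 0.84 and was lost under 6 settings. Car12, a membrane carbonic anhydrase, belongs to the list of glycolysis and hypoxia and not to this one. It rose by 2.21, with 13.66, 12.44 and 12.53 at D4 and 11.57, 10.45 and 9.99 at D3.

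Luminal lineage markers changed in both directions. Of 21 tested, 4 rose, 2 fell and 15 did not pass (median 0.13). Ly6d, Tspan8, Aqp5 and Kit rose, with log2 fold changes of 3.05, 1.51, 0.91 and 0.84. Aldh1a3 fell by 1.79, and Foxa1, a partner factor of the oestrogen receptor, fell by 0.99, a call lost under 6 settings. Krt8 had 14.83, 14.63 and 14.67 at D4 against 14.67, 14.81 and 14.76 at D3. Krt18, Krt19 and Krt7 differed by -0.25, 0.13 and -0.49 and the progenitor factor gene Sox9 by 0.17. None of these luminal keratins passed, and the Krt8 probe lay near the top of the signal range.

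Basal and myoepithelial genes gave few calls. Of 18 tested basal markers, 1 rose and 2 fell (median 0.01), and without D4 replicate 1 none rose and 2 fell (median 0.04). With all arrays the shares were 5.56% and 11.1%, against 7.48% and 5.19% over all genes. Krt17 fell by 0.67, with 13.36, 13.33 and 13.12 at D4 against 14.00, 13.91 and 13.90 at D3, while the adhesion linker Dst fell by 0.84 on the probe used. Trp63, the master regulator of basal cells, rose by 0.76 with separate arrays (adjusted p = 0.0381), and was lost under 6 settings. Krt14 and Itgb4 differed by -0.18 and 0.00. None of 15 tested contractile genes of myoepithelium was called (median -0.17), and Acta2, the smooth muscle actin, had 14.33, 13.85 and 13.59 at D4, against 14.18, 13.94 and 13.97 at D3. On the D4 arrays the median contractile gene lay at 0.11, -0.17 and -0.42 relative to D3, with replicate 1 the highest. Without that array the median was -0.24, and none was called. Of 27 tested polarity and junction genes none was called, and their median was 0.02. Cldn4, a tight junction claudin, differed by -0.49 with separate arrays and missed only the fold minimum (adjusted p = 0.0107), whereas Ctnna1 and Gja1 differed by -0.06 and 0.00.

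Most interferon-stimulated genes tested rose in these wild type cultures. Interferons act through receptors at the cell surface and switch on antiviral effectors, many of them through a promoter element, the interferon-stimulated response element (ISRE). Of 49 tested genes, 33 rose (67.3%) and none fell, with a median of 0.92, and in 41 all D4 arrays lay above all D3 arrays. Over all genes, 7.48% were called higher and 20.9% had all D4 arrays above all D3 arrays. Leaving out single arrays gave 31 or 32 members called higher. Among sensors and regulators, Irf7 rose by 2.20 (10.04, 9.56 and 9.67 at D4, against 7.70, 7.51 and 7.47 at D3), and Stat2 and Irf9 by 1.04 and 0.92. Among effectors, Mx2, a dynamin-like antiviral GTPase, had 9.68, 9.76 and 9.83 at D4 and 6.93, 7.20 and 7.77 at D3. Isg15, a ubiquitin-like modifier, had 13.16, 12.85 and 12.90 at D4 and 11.36, 10.67 and 10.99 at D3. Usp18, which removes ISG15 and dampens the receptor, rose by 2.03.

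Trim30a, a TRIM family protein of the mouse, was detected at D4 only and rose at least 3.20-fold. The guanylate-binding protein gene Gbp3 rose by 1.92 and the MHC class I peptide transporter and immunoproteasome genes Tap1 and Psmb9 by 1.19 and 1.08. Members that did not pass included Irf1 (-0.01), Psmb10 (0.00), B2m (0.16) and the chemokine gene Cxcl10 (-0.29). Oas1a and Oas1b, both detected on no D3 array, and the class I gene H2-Q7 have close relatives that their probes may also read. The list was chosen with the genotype results of these data known.

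The ISRE core, GAAA followed by any 2 bases and GAAA again, searched on both strands of the same RefSeq promoters, stood in 14 of 26 interferon-stimulated genes called higher that had a sequence (53.8%), in 5 of 12 not called higher and in 2.99% of all 8186. The 3 promoters shown are of the genes with the largest called increases among those 14, with the core in capitals. Overlapping matches run together in Isg15 and Gbp3.
Trim30a, chr7:104465144-104465443 (minus strand): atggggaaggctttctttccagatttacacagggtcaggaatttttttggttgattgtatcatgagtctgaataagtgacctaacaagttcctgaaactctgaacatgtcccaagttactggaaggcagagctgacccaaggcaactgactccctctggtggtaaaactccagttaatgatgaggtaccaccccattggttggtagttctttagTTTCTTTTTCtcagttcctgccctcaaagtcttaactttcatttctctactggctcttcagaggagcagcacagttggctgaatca
Isg15, chr4:156200769-156201068 (minus strand): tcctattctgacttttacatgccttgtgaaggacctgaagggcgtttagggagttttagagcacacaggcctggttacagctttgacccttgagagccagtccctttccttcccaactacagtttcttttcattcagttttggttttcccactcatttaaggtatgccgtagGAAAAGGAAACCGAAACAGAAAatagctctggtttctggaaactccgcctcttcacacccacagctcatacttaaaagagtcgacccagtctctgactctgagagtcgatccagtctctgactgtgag
Gbp3, chr3:142559794-142560093 (plus strand): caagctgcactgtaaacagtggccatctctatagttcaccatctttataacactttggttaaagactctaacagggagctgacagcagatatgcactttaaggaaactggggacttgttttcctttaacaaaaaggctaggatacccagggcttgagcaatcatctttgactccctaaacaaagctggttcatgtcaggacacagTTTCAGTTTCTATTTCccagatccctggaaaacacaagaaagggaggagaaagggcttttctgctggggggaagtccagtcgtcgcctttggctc

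**Figure D3:**
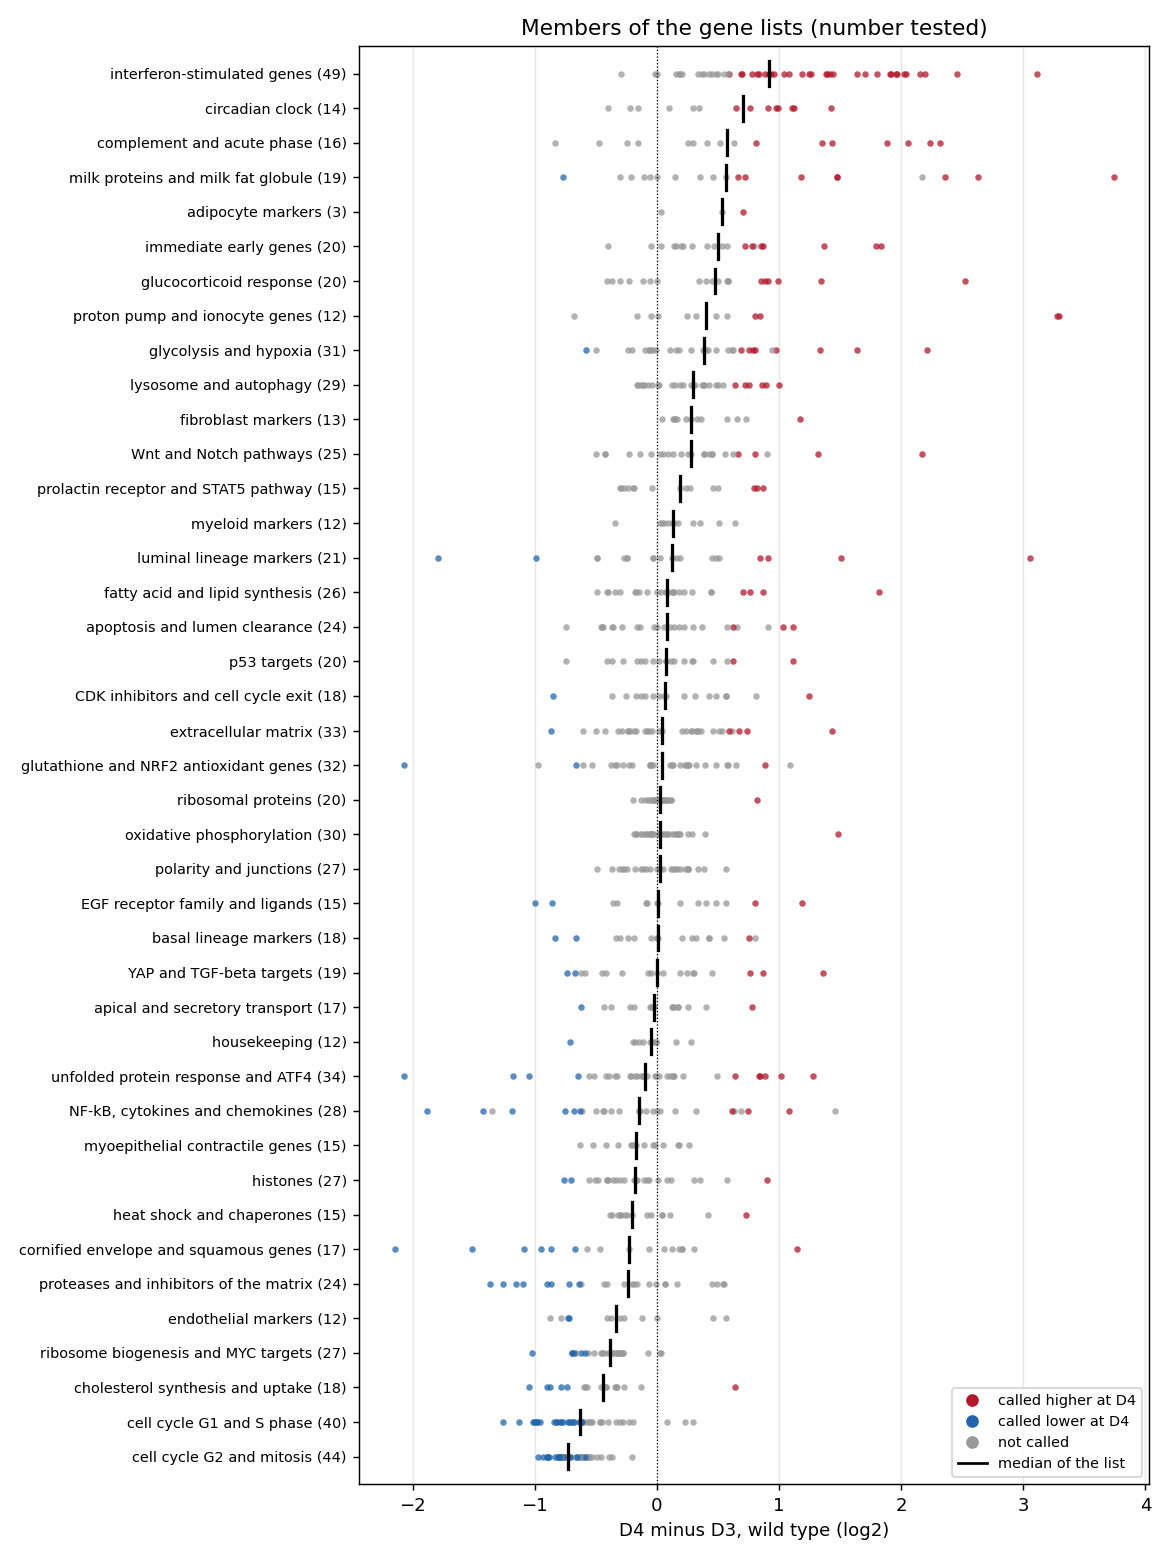
Difference between days (D4 minus D3, log2, horizontal) of each tested member of 41 gene lists (1 row each, with the number tested), with members called higher in red, called lower in blue, not called in grey, and the list median as a black bar. Interferon-stimulated genes lie at the top (median 0.92), and the lists of G1 and S phase (-0.63) and of G2 and mitosis (-0.73) at the bottom.

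Most cell cycle genes tested fell. Of 40 tested genes of G1 and S phase, 23 fell (57.5%) and none rose, with a median of -0.63. Of 44 tested genes of G2 and mitosis, 28 fell (63.6%) and none rose, with a median of -0.73, and all 44 differences were below 0. The background is 5.19% of genes called lower. In S phase, the catalytic subunit of DNA polymerase epsilon, Pole, had 6.92, 7.57 and 7.61 at D4 and 8.61, 8.49 and 8.79 at D3 (log2 fold change -1.26, standard error 0.20, adjusted p = 0.00179). The replicative helicase subunit Mcm3 had 9.34, 9.86 and 9.63 at D4 and 10.71, 10.72 and 10.81 at D3, a fall by 1.13. Gins1, of the same helicase, Chaf1a, which loads histones on new DNA, and the licensing factor Cdc6 fell by 1.01, 1.01 and 1.00. The helicase subunit Mcm4, among the brightest of the list, fell by 0.71.

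In mitosis, Cdc25c, the phosphatase that activates CDK1, had 8.77, 9.24 and 9.11 at D4 and 10.24, 9.80 and 10.02 at D3, a fall by 0.98. The chromosome motor Kif4, the ubiquitin-conjugating enzyme Ube2c and the transcription factor Mybl2 fell by 0.93, 0.90 and 0.90, and the spindle and cytokinesis genes Anln and Prc1 by 0.65 and 0.59. The G1 regulator Ccnd1 differed by -0.30 on its brightest probe and did not pass, while its other probes gave -0.60, which was called lower (adjusted p = 0.00533), and -0.30, and all 3 lay lower on every D4 array. Cdk4 differed by -0.20 and did not pass, and Ccnd2, Ccnd3 and E2f3 differed by 0.23, 0.30 and 0.09. D4 replicate 1 lay lowest in both lists, with list medians of -0.79, -0.54 and -0.58 (S phase) and of -0.93, -0.58 and -0.59 (mitosis) on the D4 arrays, relative to D3. Without it, 18 of 40 and 17 of 44 genes fell.

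Among 18 tested CDK inhibitors and genes of cell cycle exit, Rb1, the retinoblastoma gene, rose by 1.25 (12.32, 11.43 and 11.88 at D4, against 10.84, 10.64 and 10.40 at D3), and its relative Rbl1 fell by 0.85. The inhibitors Cdkn1a, Cdkn1b and Cdkn1c differed by -0.13, 0.01 and -0.37 and did not pass. Histone genes gave 1 called higher and 2 lower of 27 tested (median -0.18): H2ac18 rose by 0.90, H2ax, the histone of DNA damage foci, fell by 0.71, and H4c3 was at least 1.42-fold lower, with no D4 array above background and a call lost under 7 settings. The histone shares were 3.7% higher and 7.41% lower, against 7.48% and 5.19% over all genes. Genes of ribosome biogenesis fell in 6 of 27 cases and rose in none (median -0.38), led by Cad, of pyrimidine synthesis (-1.03), Rrp12 (-0.70), Pprc1 (-0.70) and Nop56 (-0.68). Myc itself differed by 0.04. Ribosomal protein genes did not share this: 1 of 20 was called, Rpl22, which rose by 0.82, and their median was 0.03.

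The letters TTTCCCGC or TTTGGCGC, the sites of E2F factors that drive S phase genes, were searched in the same way. They stood in 6 of 18 G1 and S phase genes called lower with a promoter sequence (33.3%), in 5 of 15 not called lower and in 3.04% of all 8186, so that members called lower and members that did not pass held them in the same share. The promoter of Mcm3 is shown, the member with the largest decrease among those 6, with matches in capitals.
Mcm3, chr1:20820263-20820562 (minus strand): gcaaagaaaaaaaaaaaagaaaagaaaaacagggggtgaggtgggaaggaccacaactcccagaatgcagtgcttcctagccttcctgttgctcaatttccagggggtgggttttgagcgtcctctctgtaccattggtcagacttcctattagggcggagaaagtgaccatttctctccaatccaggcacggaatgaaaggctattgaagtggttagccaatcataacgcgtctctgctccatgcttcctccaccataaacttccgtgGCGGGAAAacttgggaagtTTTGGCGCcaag

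Most circadian clock genes tested rose. Of 14 tested genes of the circadian clock, 8 rose (57.1%) and none fell, with a median of 0.71 (0.46 with 2 genes at their bound). Dbp, an output factor of the clock, had 9.44, 9.83 and 9.85 at D4 and 8.70, 8.18 and 7.96 at D3, a rise by 1.43. Rora, an activator of the clock gene Arntl, rose by 1.12, and the repressors Per2 and Per1 by 1.11 and 0.99. Npas2 and Per3 were below background on every D3 array. Clock and Cry2 differed by -0.16 and 0.10. Without background correction 4 of the 14 rose, with a median of 0.33. The hour of harvest is unknown from the sources used here, and its part in these values was not tested.

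Of 20 tested glucocorticoid-response genes 6 rose, none fell and 14 did not pass (median 0.47). The culture medium held hydrocortisone at both days. Cultures were fed at intervals longer than the day compared here, so the time since feeding need not have been the same at D4 and D3. Its part in the values of any list was not tested. Sult1a1, a phenol sulfotransferase, had 11.71, 11.07 and 11.52 at D4 and 8.67, 9.31 and 8.74 at D3 (log2 fold change 2.53, standard error 0.33, adjusted p = 0.000807). Tsc22d3, which encodes the glucocorticoid-induced leucine zipper, rose by 1.35, Pdk4, which restrains pyruvate oxidation, by 0.91, and the receptor co-chaperone Fkbp5 by 0.86. Sgk1 and Mt1 differed by -0.05 and -0.11. Of 20 immediate early genes 7 rose and none fell (median 0.50). Klf2 had 10.82, 10.03 and 10.03 at D4 and 8.59, 8.68 and 8.10 at D3. Jun rose by 1.79, with 12.15, 12.17 and 11.92 at D4 against 9.67, 11.14 and 10.06 at D3, while Egr3 and Klf4 rose by 1.37 and 0.87. Fos, Fosb and Myc did not pass, with differences of 0.47, 0.80 and 0.04.

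**Figure D4:**
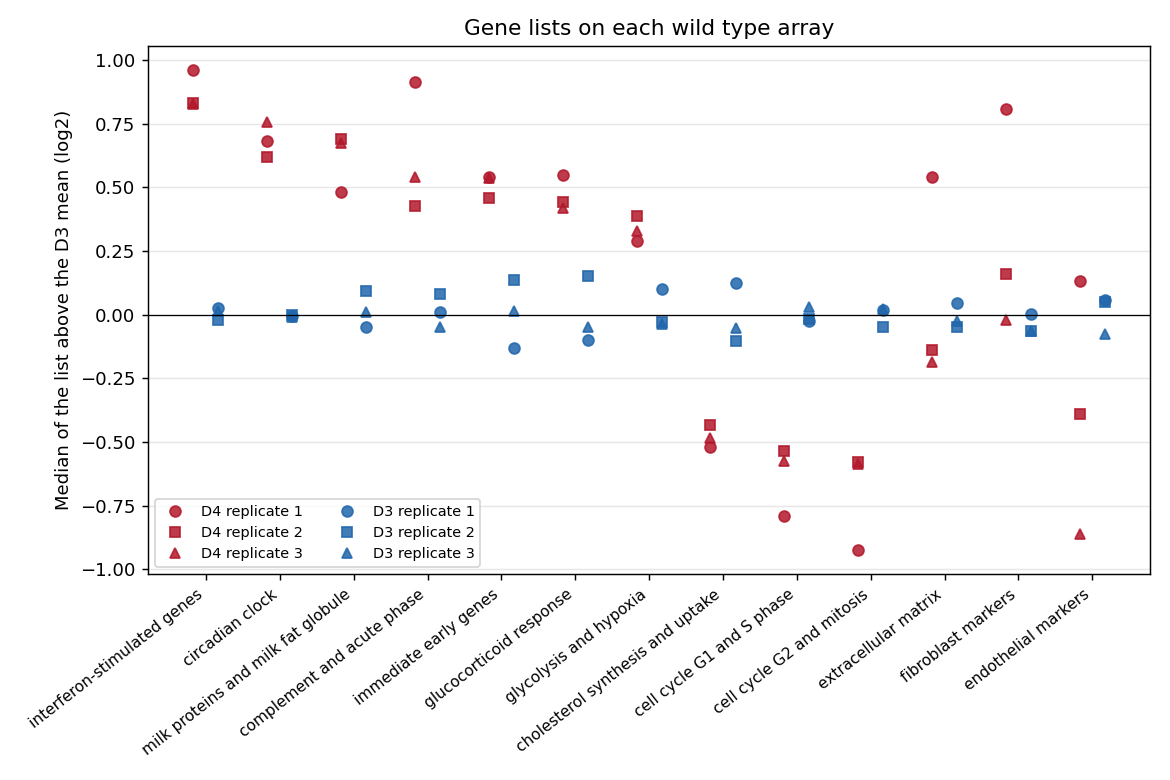
Median of each gene list relative to its D3 mean (log2, vertical) on the 3 D4 arrays (red) and the 3 D3 arrays (blue), with circle, square and triangle for replicates 1, 2 and 3. All D4 arrays lie apart from all D3 arrays for the lists from interferon-stimulated genes (0.96, 0.83 and 0.83 at D4) to G2 and mitosis, whereas in extracellular matrix, fibroblast and endothelial genes D4 replicate 1 lies above the other D4 arrays.

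Metabolic genes divided by pathway. Glycolysis and hypoxia genes rose in 8 of 31 cases and fell in 1 (median 0.38). Car12, described above, rose most (2.21). Aldoc, an aldolase, had 13.09, 13.04 and 13.16 at D4 and 11.62, 11.37 and 11.37 at D3 (log2 fold change 1.64, standard error 0.12, adjusted p = 0.000122). Egln3, an oxygen sensor that is itself a HIF target, and Pdk1 rose by 1.33 and 0.98. Hif1a was the member called lower (-0.59), and Gapdh, Ldha and the glucose transporter gene Slc2a1 differed by -0.01, 0.16 and -0.03. Of 18 tested genes of cholesterol synthesis and uptake 5 fell, 1 rose and 17 had differences below 0 (median -0.44). Dhcr7, the last step of synthesis, had 9.21, 9.63 and 9.22 at D4 against 10.54, 10.31 and 10.36 at D3, a fall by 1.05. Hsd17b7, Cyp51 and Mvk fell by 0.90, 0.87 and 0.79.

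Fatty acid and lipid genes gave 4 of 26 called higher and none lower (median 0.08). Thrsp (Spot 14), an inducer of lipogenesis in the lactating gland, had 9.02, 9.80 and 9.87 at D4 and 6.75, 8.29 and 8.20 at D3, a rise by 1.82. The lipogenic factor gene Srebf1 rose by 0.87 and the acetyl-CoA synthetase gene Acss2 by 0.76, whereas Fasn, Acly and Scd1 differed by 0.08, -0.30 and 0.44 and did not pass. Of 30 genes of oxidative phosphorylation 1 was called, the coactivator Ppargc1a, which rose by 1.49 (8.51, 7.99 and 7.94 at D4, against 6.83, 6.85 and 6.30 at D3). Antioxidant genes of glutathione and NRF2 gave 1 called higher, Gpx3 (0.88), and 2 lower, Slc7a11 (-2.07) and Txnrd1 (-0.66, lost under 6 settings), of 32 tested. Genes of the unfolded protein response and ATF4 gave 6 higher and 4 lower of 34. Vldlr, a lipoprotein receptor, and Dnajb9, an ER co-chaperone, rose by 1.28 and 1.02, and the ATF4 targets Slc7a11, Chac1 and Mthfd2 fell by 2.07, 1.18 and 1.05.

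Genes of lysosomes and autophagy rose in 6 of 29 cases and fell in none (median 0.29). Map1lc3b, of the autophagosome membrane, averaged 10.22 at D4 and 9.22 at D3 (standard error of the difference 0.15, adjusted p = 0.00131). The lysosomal enzyme genes Ctsk, Hexa and Ctsd rose by 0.89, 0.86 and 0.75. Of 24 apoptosis genes 3 rose and none fell (median 0.08), namely the BH3-only genes Bik (1.11) and Bcl2l11 (1.03) and the death receptor gene Fas (0.62). Bcl2l11 encodes BIM, which promotes cell death in the lumen of acini of a human mammary line. Its signals were 11.34, 11.09 and 10.82 at D4, against 10.07, 10.16 and 9.92 at D3, and 2 of its other 3 probes rose by 0.96 and 1.17 while the last differed by 0.03. Bmf, another BH3-only gene, differed by 0.66 and did not pass. The p53 targets called were Sesn1 (1.12) and Fas, of 20 tested.

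Of 24 tested proteases of the matrix and their inhibitors 8 fell (33.3%), none rose and 16 did not pass (median -0.24). Mmp10, stromelysin 2, had 8.83, 8.51 and 8.43 at D4 and 9.86, 10.09 and 9.91 at D3, a fall by 1.36. Plaur, the receptor of urokinase, and Plau, urokinase itself, fell by 1.10 and 0.90, and the metalloprotease Adam8 by 1.26. Klk6 fell by 1.16 and was lost under 10 settings. The inhibitors Timp1, Timp2 and Timp3 differed by -0.18, 0.55 and -0.01 and did not pass. Has2, the hyaluronan synthase, fell by 1.27, with 10.80, 10.65 and 10.69 at D4 and 12.12, 11.98 and 11.86 at D3.

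Cornified envelope and squamous genes fell in 6 of 17 cases and rose in 1 (median -0.23, and 5 and 1 without D4 replicate 1). Lce1f fell by 2.14 and the stress keratin Krt16 by 1.09, Krt6b was at least 1.91-fold lower and below background on all D4 arrays, and Calml3 was at least 1.54-fold higher. Of 28 cytokines, chemokines and NF-kB targets 6 fell and 3 rose (median -0.15). The granulocyte factor gene Csf3 and Lif, of the IL-6 family, fell by 1.42 and 1.19, although the other probe of Csf3 differed by 0.37. Il1b, below background at D3, was at least 1.34-fold higher and was lost under 8 settings. The acute phase and complement list went the other way, with 7 of 16 higher and none lower (median 0.57). Hp, haptoglobin, had 13.75, 12.86 and 12.89 at D4 and 10.85, 10.93 and 10.77 at D3, Lrg1 rose by 2.23, and Lbp, which carries lipopolysaccharide, by 2.05 (standard error 0.17, adjusted p = 0.000144). C4a was at least 2.13-fold higher, but its probe may also read C4b, whose own probe did not pass (0.51).

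Signalling genes were described by 3 lists. Of 25 tested Wnt and Notch genes 4 rose and none fell (median 0.28), namely Hey1, Notch3, Nrarp and Notch1, all of Notch. Hey1, a target of Notch, had 13.74, 13.20 and 13.40 at D4 and 11.43, 11.50 and 10.90 at D3 (log2 fold change 2.17, standard error 0.26, adjusted p = 0.000547). The receptor genes Notch3 and Notch1 rose by 1.32 and 0.66 (a call lost under 4 settings for Notch1) and the feedback gene Nrarp by 0.80, whereas Hes1 differed by 0.90 and did not pass. The Wnt target Axin2 differed by -0.23. In the EGF receptor list, the ERK phosphatase genes Dusp5 and Dusp6 rose by 1.19 and 0.80, and the ligand gene Epgn and the ERK-responsive factor gene Etv4 fell by 1.00 and 0.86, of 15 tested. Egfr differed by 0.00 and Erbb2 by -0.09. Among YAP and TGF-beta targets 3 rose and 2 fell of 19, with Ccn1 at 13.87, 13.64 and 13.78 at D4 and 11.70, 13.05 and 12.45 at D3. Of 17 tested genes of apical and secretory transport 1 rose and 1 fell (median -0.02). Each share was 5.88%, against 7.48% higher and 5.19% lower over all genes. Rab3d, of secretory granules, rose by 0.78 (11.90, 11.80 and 11.88 at D4, against 11.14, 11.04 and 11.05 at D3). Rab27b fell by 0.62, a call lost under 10 settings.

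Genes of matrix and of other cell types moved with D4 replicate 1. Of 33 tested matrix genes 4 rose and 1 fell (median 0.05, and 3 rose and 3 fell without that array, with a median of -0.10). Col6a1 had 11.48, 10.69 and 10.19 at D4 and 9.69, 9.15 and 9.20 at D3, Col16a1 and Col4a5 rose by 0.74 and 0.67, and Thbs1, thrombospondin 1, fell by 0.87. Of 13 fibroblast markers tested 1 rose, Pdgfra (9.03, 7.47 and 7.80 at D4, against 6.89, 7.17 and 6.72 at D3), and none rose without that array. The summed signal of 16 fibroblast markers was 17238, 11218 and 9916 at D4, against 11664, 9700 and 10109 at D3. Endothelial markers fell in 2 of 12 cases, Emcn and Plvap (lost under 8 and 7 settings), and in 5 without that array, and their summed signal was 5343, 3208 and 2806 at D4, against 5115, 5376 and 4790 at D3. None of 12 tested myeloid markers was called. The summed signal of the 17 with a probe was 33854, 26250 and 28081 at D4, against 19345, 25556 and 25103 at D3. These sums were separate between the days, by a small margin. Of those 17 myeloid markers, 11 were detected on all 6 arrays, the macrophage genes Csf1r, C1qa and Mrc1 among them. Another 4 were detected on none of the 6, the pan-leukocyte marker Ptprc among them. Of 13 adipocyte markers with a probe, 8 were detected on no array, and the defining genes Adipoq, Fabp4 and Plin1 were among them. The summed signal of the 13 was separate between the days, at 12801, 10428 and 11076 at D4, against 8316, 8446 and 8695 at D3. Of the 3 tested, Pparg, a regulator of fat cells, rose by 0.70 (lost under 10 settings), and the lipase genes Pnpla2 and Lpl differed by 0.53 and 0.04. The part of such cells in the other results was not tested. Among 12 housekeeping genes tested, Tfrc, the transferrin receptor gene, fell by 0.71, and Actb, Gapdh and Ppia differed by -0.01, -0.01 and -0.04.

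The same day was then set against the cKO cultures, with which the wild type comparison shared no array but did share the estimate of the spread. In cKO cultures 282 of the 10100 genes were higher (2.79%) and 181 lower (1.79%) at D4, and the SD of the log2 changes over genes was 0.47 in wild type and 0.34 in cKO. Probes had been filtered and chosen on the wild type arrays alone. Genes detected only in cKO are therefore left out, and the counts and SDs of the genotypes are not on equal terms. Of the 755 genes higher in wild type, 731 had a cKO change above 0, and of the 524 lower, 503 had one below 0. The share of all genes with such a sign in cKO was not counted, so these 2 counts stand without a background. Across genes, which are not independent replicates and share arrays, the changes correlated with r = 0.753 (Spearman's rho 0.683). The test of the difference between the changes found no gene at an adjusted p of at most 0.05 (lowest adjusted p = 0.0859, by limma), and 785 genes (7.77%) had an unadjusted p below 0.05. Without background correction 4 genes passed, with trend and robust variances 6, and with the replicate block over both genotypes 1.

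The 5 genes in either direction with the lowest p for that difference are given as values. Pip differed between days by 3.74 in wild type and by 1.20 in cKO, with fitted values since D3 lay below background in both genotypes. Fam180a, also below background at D3, was at least 2.62-fold higher at D4 in wild type and differed by 0.40 in cKO. In cKO its signals were below background at both days, so the 0.40 is not a measured rise. Atp10d, a lipid flippase, differed by 1.70 in wild type and 0.17 in cKO, Zkscan14 by 1.19 and 0.31, and Ifi27, an interferon-inducible gene, by 0.73 and -0.15. Has2 differed by -1.27 in wild type and -0.08 in cKO, Prss22 by -1.04 and 0.03, Lce1f by -2.14 and 0.45, and Il18r1 by -1.01 and 0.08. In cKO, Lce1f was below background at both days, with 5.47, 6.17 and 5.95 at D4 and 5.07, 5.36 and 5.83 at D3. Its 0.45 is therefore a difference within background and shows no reversal of direction. Flt4, a receptor of vascular endothelial growth factors, differed by -0.48 in wild type and 0.72 in cKO. Its cKO signals at D3 (6.08, 6.14 and 5.84) were below background, so the 0.72 is a fitted value. Among the largest wild type changes, Masp1 differed by 3.17 in wild type and 2.96 in cKO, Foxi1 by 3.28 and 2.40, and Aldh1a3 by -1.79 and -1.23. Other large changes were further apart, with 3.05 and 1.22 for Ly6d, 2.71 and 0.71 for Cd200 and -1.98 and -0.39 for Serpinb2. All of these genes were chosen by their wild type change, which favours a larger value in wild type. The difference between genotypes passed for none of them. The list medians in wild type and cKO were 0.92 and 0.53 for interferon-stimulated genes, 0.57 and 0.17 for milk genes, -0.63 and -0.56 for S phase, -0.73 and -0.57 for mitosis and 0.57 and 0.63 for complement, and these pairs were not tested. They are changes over the day and not levels. At D3, Oas2 already had 9.59, 11.10 and 9.42 in cKO, against 6.02, 6.37 and 6.07 in wild type. Irf7 had 9.64, 10.97 and 9.86 in cKO at D3, against 7.70, 7.51 and 7.47 in wild type. Levels of the other members are not given here. Prdm1 itself could not be followed, since its 2 probes were above background on none of the 6 wild type arrays.

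**Figure D5:**
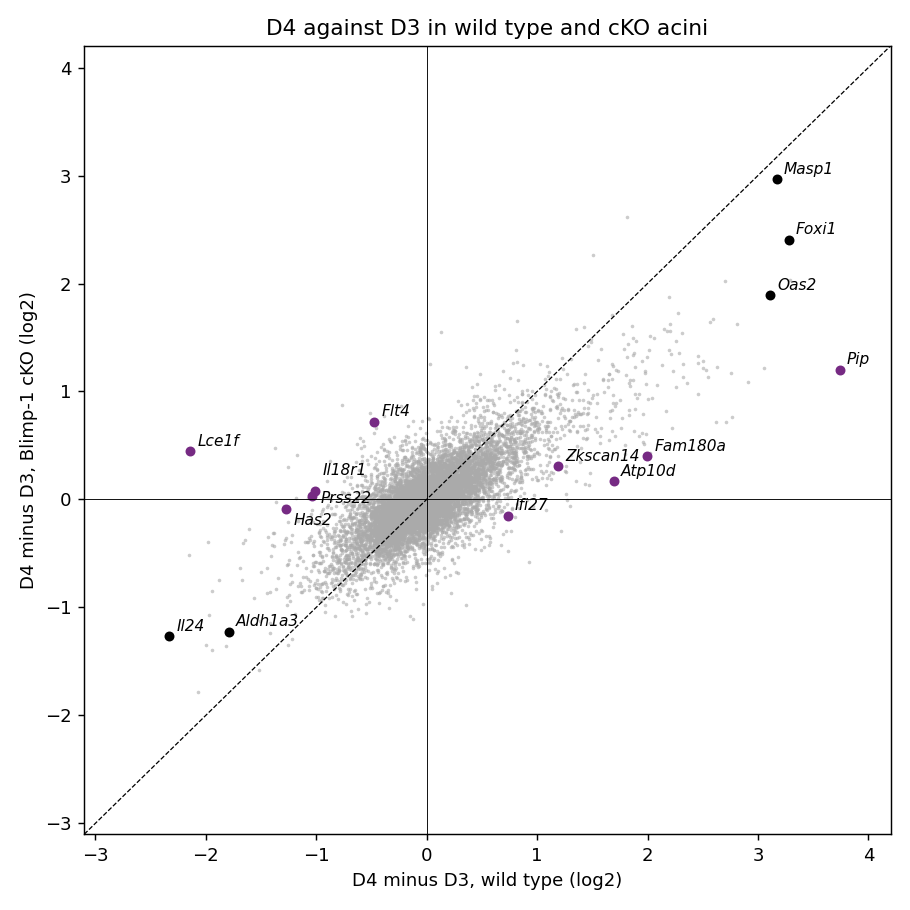
Change between days (D4 minus D3, log2) in wild type (horizontal) and Blimp-1 cKO cultures (vertical) for 10100 genes, with the line of equal change dashed. Genes with the lowest p for the difference between genotypes are purple (Pip, 3.74 in wild type and 1.20 in cKO), and 5 of the largest wild type changes are black (Masp1, 3.17 and 2.96, and Il24, -2.33 and -1.26).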

How the data were processed

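RNA of 3D cultures of wild type MECs (and of Blimp-1 cKO MECs) was hybridised to Illumina Mouse WG-6 v2 BeadChips, 3 arrays per genotype for D4 and 3 for D3. GenomeStudio served the authors to summarise beads per probe, and the deposited intensity values taken here had neither normalization nor background subtraction. The deposited detection p-values rate each probe against negative control beads. The authors' processed intensity values, after rank-invariant normalization and background subtraction by the authors, served as an alternative.

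For all 12 arrays together, neqc of limma 3.58.1 in R 4.3.3 (offset 16) corrected the background from those p-values, quantile-normalized the signals and took log2. Of 45281 probes, 34885 carry 1 gene symbol, 18 several and 10378 none in the platform annotation, and 2627 of the 18613 tested probes had no symbol. The probe with the highest mean over the 6 wild type arrays stood for each of 10100 genes. Of 3947 genes with more than 1 tested probe, 731 had a called probe, and in 228 of these all tested probes were called the same way. The limma model held the means of 4 groups (genotype by day), so that 12 arrays gave the spread, and Benjamini-Hochberg adjustment ran over every tested probe. Calls required an adjusted p up to 0.05 and a difference of 1.5-fold or more. Probes detected on no array of a day (64 genes called higher, 24 called lower) have a lower bound, the mean of the bright day against, per array, the higher of the lowest signal of a detected probe and the dim probe's own. Such probes passed the detection filter through the bright day alone, so their calls are not independent of it. The fit was tested on simulated arrays of this comparison (18613 probes), where 62.0% of changes of 1 and 96.0% of changes of 2 on the log2 scale were recovered, with 1 false call. Only 100 probes were changed at each size, and the noise was independent between arrays. Shifts of whole arrays were not simulated, so these rates need not hold for the data. Any single gene tested by exact permutation of 3 arrays against 3 reaches p = 0.1 at best. Precision is limited by the number of arrays.

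The lists (42, of which 41 had a tested member) and the genes named were chosen with earlier results of these data known, so list counts are descriptions without a test. Named were the 12 largest increases and decreases among called genes with separate arrays (by their bound where bounded), up to 4 called members per list, the 3 brightest members of 8 lists of milk, lineage, junction and cell cycle genes, Prdm1, and at most 5 genes in either direction for the contrast of genotypes. Further members and other genes were named after their values were seen.

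As alternatives, the processed values of the authors (floored at 10), no background correction, median scaling, other detection filters, the replicate number as a block, the 6 wild type arrays alone, trend and robust variances, any probe of a gene, no fold minimum, the methods' unpaired t-test and the omission of single wild type arrays were run.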

Additional observations from a re-analysis of the deposited data

How the results depend on the processing

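The counts of 755 genes higher and 524 lower stayed within 1.5 times with the authors' processed values (837 and 437), median scaling (913 and 393), other detection filters, the 6 wild type arrays alone (752 and 522), trend and robust variances (773 and 543) and any probe of a gene (871 and 698). They moved further without background correction (482 and 263), without the fold minimum (1174 and 1071) and with the methods' t-test after Benjamini-Hochberg (365 and 197), while its unadjusted counts were 755 and 530. Leaving out single wild type arrays gave 617 to 715 genes higher and 404 to 547 lower, of which 587 to 648 and 370 to 454 were shared with the full set, and turned no sign. For the difference between genotypes the count was 0, but 4 without background correction, 6 with trend and robust variances and 1 with the replicate block over both genotypes.

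Samples of the same replicate number had residual correlations of 0.19, 0.14 and 0.08 between the days, so the number was not taken to pair them, although every sample correlated best with its own number, a hint from the data only. With the replicate block 816 genes were higher and 574 lower (787 and 552 over both genotypes, 771 and 528 within the 6 wild type arrays). Of 141 named genes that were called, 105 kept the call under every alternative but the t-test, 10 lost it only without single arrays, and none changed direction. Under the methods' t-test, 65 of the 141 lost the call after Benjamini-Hochberg adjustment and 8 without adjustment. Csn1s1, Rab27b, Pparg, Klk6 and Epgn lost the call most often, with the t-test set aside. The median of all genes was -0.02 here, 0.05 with median scaling and -0.10 unscaled. Dim probes limit the folds, since 64 genes called higher and 24 called lower lay below background on 1 day.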

Other observations

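Some large changes lay outside the lists, and these genes were chosen after their values were seen. Mgp, matrix Gla protein, an inhibitor of calcification, had log2 signals of 13.79, 13.07 and 13.30 at D4 and of 10.71, 11.36 and 11.17 at D3, a rise by 2.31 (standard error 0.24). Sftpd, surfactant protein D, a collectin of lung and other mucosal surfaces, had 9.66, 9.32 and 9.76 at D4, against 6.68, 7.81 and 7.61 at D3. Ccn5, a matricellular protein, had 9.51, 8.21 and 8.54 at D4 and 6.58, 6.60 and 6.23 at D3. Ppp1r3c, which targets protein phosphatase to glycogen, and Col9a1, of cartilage collagen, were detected at D4 only and were at least 3.92-fold and 3.87-fold higher. In the other direction, Wnt7a fell by 1.66 (7.22, 7.35 and 6.53 at D4, against 8.36, 8.83 and 8.90 at D3) and the cytokine gene Il11 by 1.56 (8.54, 8.23 and 7.80 at D4, against 10.13, 9.64 and 9.49 at D3). Bard1, the partner of BRCA1, was at least 2.65-fold lower, with no D4 array above background.

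Probes of 2 genes were called in opposite directions. Of the 7 probes of Nme7, 3 were higher (2.75, 1.88 and 1.95), 1 was lower (-2.11) and the others lay between -0.05 and 0.11, as log2 differences. Of the 3 probes of Net1, a RhoA exchange factor, the brightest differed by 0.77 and a dim one by -1.11. Which transcripts each of these probes reads is unknown from the sources used.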
